A study of Homalium kanaliense and Homalium betulifolium with 6 samples.

Results

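Among the leaf transcripts of 2 New Caledonian trees, 79 contigs were abundant in Homalium betulifolium and several times lower in Homalium kanaliense. A contig is a transcript sequence put together from short reads. Members were chosen by their measured levels: a mean of at least 100 CPM over the 3 H. betulifolium plants, and a lowest H. betulifolium value at least 4 times the highest H. kanaliense value. CPM is a contig's read count set on a common library size, here after scaling with TMM, a method that corrects library totals for the few transcripts that take many reads. The 79 were 0.179% of the 44048 contigs tested, out of 52634 counted, and 3.9% of the 2026 contigs with a mean of at least 100 CPM in H. betulifolium. Because both species' values chose the members, their difference between species is given as a description, and the tests of it quoted below support nothing about them.

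The labels class H. kanaliense as hyperaccumulating nickel and H. betulifolium as not accumulating it. All 6 plants were wild, grew in gallery forest or maquis on serpentine soil, and gave 1 leaf library each, 3 per species, with no treatment. The H. kanaliense plants stood at Creek pernod, Yate, and were sampled on day 11 of month 6; the H. betulifolium plants stood at La Tontouta and were sampled on day 11 of month 9. Ages are not given in the labels. Species, site and month changed together and cannot be told apart. Reads of both species were counted on contigs of H. kanaliense, so a member had to have a counterpart in that species' transcriptome.

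Serpentine soils are rich in nickel, and most plants that live on them keep the metal out of their leaves. Hyperaccumulators move nickel from root to shoot and store it in leaf cells, largely in vacuoles and bound to organic acids. The abundant part of a leaf's messenger RNA usually comes from photosynthesis, protein synthesis, and stress and defence genes. The contigs carry numbers only and the files do not pair them with gene names, so no function can be given to any member. The labelled tissue could not be checked against leaf marker genes for the same reason.

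The libraries held 37057687 to 56616000 reads. TMM factors were 1.14 to 1.26 in H. kanaliense and 0.546, 0.918 and 1.12 in H. betulifolium plants 1, 2 and 3, so that scaling raised plant 1 most. The H. betulifolium plants were less alike than those of H. kanaliense: Spearman's correlation across the tested contigs was 0.778 to 0.847 between H. betulifolium plants and 0.891 to 0.913 between H. kanaliense plants. Plant 3 of H. betulifolium correlated more with each H. kanaliense plant (0.792 to 0.830) than with plant 2 of its own species (0.778), and most with plant 1 (0.842). Contigs are not independent replicates, and these correlations describe the libraries. Plant 2 correlated least with the H. kanaliense plants (0.738 to 0.772). No single H. betulifolium plant stood apart on every measure. The number of contigs that meet the rule moved most with plant 3, and the counts of members are given without each plant in turn below.

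The members took a far larger share of the reads in H. betulifolium than in H. kanaliense, as their choice requires. In H. betulifolium 5.31%, 13.1% and 4.63% of the library's reads fell on the 79 contigs in plants 1, 2 and 3. In H. kanaliense the shares were 0.624%, 0.596% and 0.514%. The species means were 7.67% ± 4.69 and 0.578% ± 0.057 (SD, n = 3). Plant 2 of H. betulifolium stood far above the other two, and the species did not overlap. The 95% Wilson intervals were no wider than 0.0109 percentage points on either side. They cover counting error of independent reads only. In these whole-leaf samples, fewer cells of a type and less RNA per cell cannot be told apart.

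**Figure D1:**
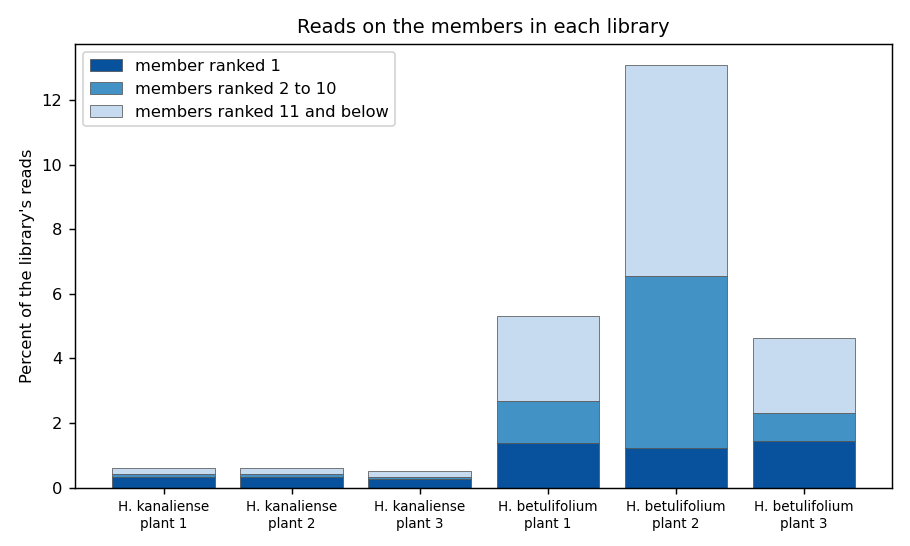
Percent of each library's reads (vertical axis) on the 79 members in each of the 6 plants, split into the member with the highest mean in H. betulifolium, those ranked 2 to 10, and those ranked 11 and below; each bar is 1 library and has no error bar. The 3 H. betulifolium bars reach 5.31%, 13.1% and 4.63%, and no H. kanaliense bar exceeds 0.624%.

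A single contig led the members in every plant of both species. Hkan_v1_contig_268, the member with the highest mean in H. betulifolium, was at 25336, 13327 and 12957 CPM in plants 1, 2 and 3 of that species. In H. kanaliense it was at 2698, 2994 and 2152 CPM. It was thus among the abundant leaf transcripts of both species, with no overlap between them. Its mean was 17207 ± 7043 CPM against 2615 ± 428 CPM (SD, n = 3), and its log2 fold change was 2.72 ± 0.83 (SE). Hkan_v1_contig_268 took 52.8% to 56.9% of the members' reads in H. kanaliense, but 26.1%, 9.34% and 31.3% in H. betulifolium plants 1, 2 and 3. Its share of the whole library was even among H. betulifolium plants, at 1.38%, 1.22% and 1.45%. Without it the other 78 members held 3.92%, 11.9% and 3.18% of the H. betulifolium reads and 0.242% to 0.291% of those of H. kanaliense.

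Whether this leading contig counts as a member depended on the scaling. On library totals alone Hkan_v1_contig_268 had 13836, 12219 and 14517 CPM in H. betulifolium against at most 3395 CPM in H. kanaliense, a separation of 3.60, under the 4 that the rule asks for. The second named contig behaved in the same way. Hkan_v1_contig_2064 had the next highest level in H. kanaliense, with 475, 454 and 341 CPM. In plants 1, 2 and 3 of H. betulifolium it reached 4763, 2673 and 1921 CPM. The lowest H. betulifolium value was 4.04 times the highest of H. kanaliense under TMM and 3.67 times on library totals. Its log2 fold change was 2.88 ± 0.68 (SE). Other scalings, tools and sets of plants, 12 in all, gave Hkan_v1_contig_268 a log2 fold change from 2.10 to 2.95 and Hkan_v1_contig_2064 one from 2.23 to 3.20. In edgeR's fit neither was called (adjusted p = 0.209 and 0.113). Of the 12 alternatives, DESeq2 (adjusted p = 6.11e-06 and 8.36e-06) and limma-voom (adjusted p = 0.0412 and 0.0318) called both. The highest adjusted p among the 12 was 0.596 for Hkan_v1_contig_268 and 0.428 for Hkan_v1_contig_2064.

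Reads in H. betulifolium were spread over more of the members than in H. kanaliense. The rule sets a minimum mean in H. betulifolium and none in H. kanaliense. The directions in this paragraph were therefore largely set by the choice of members. The 10 most counted members of a library held 51.6% to 58.9% of the members' reads in H. betulifolium and 80.9% to 84.4% in H. kanaliense. Hkan_v1_contig_268, not a member on library totals, alone held 52.8% to 56.9% in H. kanaliense. Of the 100 contigs with the highest level in a plant, 13, 26 and 10 were members in H. betulifolium plants 1, 2 and 3, against 1 in each H. kanaliense plant. Of the 1000 highest, 54, 69 and 54 were members in H. betulifolium and 4 in each H. kanaliense plant. In H. betulifolium the median member was at 433, 608 and 218 CPM, in the order of plants 1, 2 and 3. It was at 12.6, 10.4 and 9.77 CPM in H. kanaliense plants 1, 2 and 3, above the median tested contig there (2.07 to 2.18 CPM).

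**Figure D2:**
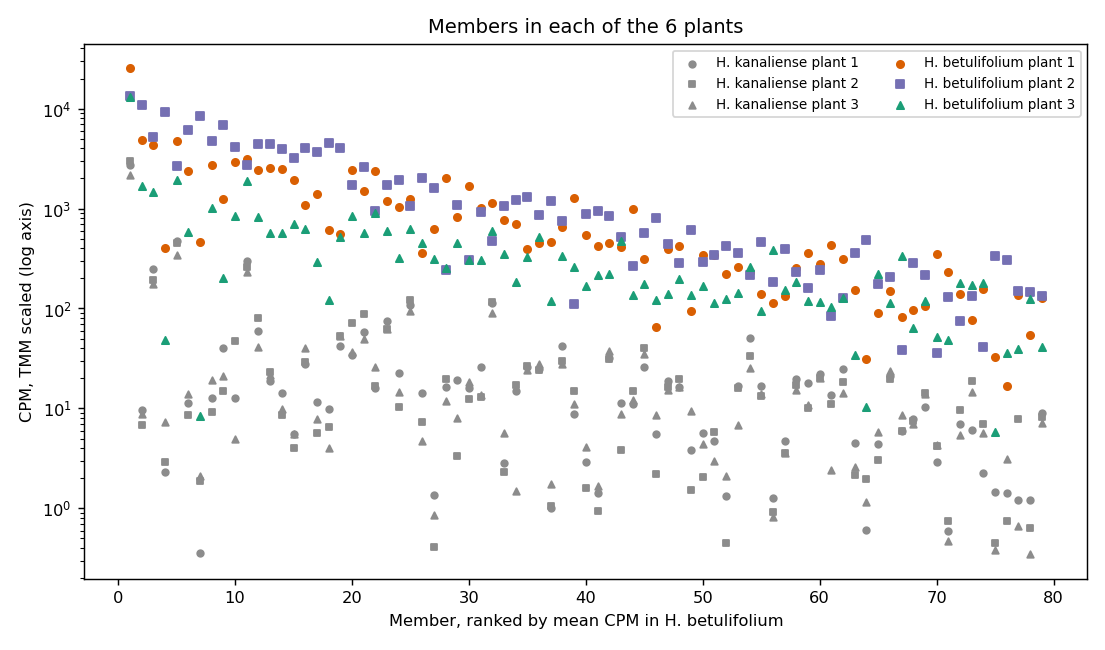
CPM with TMM scaling (log axis) of each of the 79 members in each of the 6 plants; members are ordered along the horizontal axis by their mean in H. betulifolium, grey points are the 3 H. kanaliense plants and coloured points the 3 H. betulifolium plants. Plant 3 of H. betulifolium is the lowest coloured point in 58 members, and plant 2 is the highest in 50.

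Most members were low, but not without reads, in the nickel hyperaccumulator. Every member had reads in every plant, and the fewest were 17 in an H. kanaliense library and 298 in one of H. betulifolium. How reads matching several contigs were treated is not known. Whether the few H. kanaliense reads of the lowest members came from expression of those contigs was not tested. By mean level in H. kanaliense, 6 members were at 100 CPM or more, 38 between 10 and 100 CPM, 31 between 1 and 10 CPM and 4 under 1 CPM. The 6 highest had a median of 2852 CPM in H. betulifolium and were 6.58-fold to 17.8-fold higher there. The 38 below them had a median of 690 CPM in H. betulifolium and differed 6.40-fold to 270-fold. The 31 at 1 to 10 CPM had a median of 267 CPM and differed 12.4-fold to 2048-fold. The 4 lowest had a median of 131 CPM and differed 149-fold to 972-fold. A low level in H. kanaliense with a fixed minimum in H. betulifolium forces a high ratio, so the order of these folds was set by the choice of members.

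Individual members show the range. The contig ranked 3 by mean level in H. betulifolium had 4321, 5227 and 1468 CPM in plants 1, 2 and 3 of that species and 249, 193 and 176 CPM in H. kanaliense. It was well expressed in every plant of both species. The contig ranked 27 had 625, 1603 and 314 CPM in H. betulifolium and 1.35, 0.411 and 0.853 CPM in H. kanaliense. Its lowest H. betulifolium value was 233 times the highest value of H. kanaliense, the widest separation among the members. The contig ranked 24 was intermediate, with 1032, 1940 and 321 CPM against 22.8, 10.4 and 14.6 CPM.

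The separation of the species differed widely between members. The lowest H. betulifolium value was 4 to 8 times the highest of H. kanaliense in 33 members, 8 to 16 times in 20, 16 to 64 times in 19 and 64 times or more in 7, with a median of 9.40. Without H. betulifolium plant 3, which was the lowest of its species in most members, the rule gave 112, 47, 36 and 16 contigs in these classes. The ratio of species means had a median of 47.0 and ran from 6.40 to 2048. By the rule no member overlapped between species; over all tested contigs, 9.15% had every H. betulifolium plant above every H. kanaliense plant. At the edge, the member with the least separation had 32.9, 334 and 5.85 CPM in H. betulifolium and at most 1.46 CPM in H. kanaliense, a separation of 4.01. The abundant contig just outside had 445, 166 and 168 CPM against at most 41.7 CPM, a separation of 3.98. The member with the lowest H. betulifolium mean was at 100.2 CPM, and the separated contig just under the limit at 99.99 CPM. Between separations of 3 and 4 lay 30 further abundant contigs, and 12 members lay between 4 and 5.

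Most, but not all, of the members were also called between species across the whole table. edgeR's quasi-likelihood test called 46 of the 79 at a Benjamini-Hochberg adjusted p under 0.05, all higher in H. betulifolium, where 0.885% of all tested contigs were called and 0.245% were called as higher in that species. The contrast is the one that chose the members, so nothing is read from this share. The members' median log2 fold change was 5.55 (2.68 to 11.0), with a median SE of 0.82, beside a median of 0.78 in the 1947 other contigs at 100 CPM or more in H. betulifolium and -0.0044 over all tested contigs. Where H. betulifolium plants differed under 4-fold, 29 of 39 members were called. Where they differed 4-fold or more, 17 of 40 were called. The test weighs the species difference against this spread, so fewer calls at a wider spread were largely set by the test. None of the 6 members at 100 CPM or more in H. kanaliense was called by edgeR. All 79 members had an unadjusted p under 0.05 in edgeR's test, as had 6074 of the 44048 tested contigs and 355 of the 1947 other abundant contigs. DESeq2 called 78 of the 78 members it gave an adjusted p for (6.53% of all contigs) and limma-voom 69 of the 79 (1.8% of all contigs). The same contrast chose the members, so these counts support nothing about them. In edgeR the count of members called was 0 of 79 when any single H. kanaliense plant was left out, and likewise without plant 1 or plant 2 of H. betulifolium. Those 5 fits called 0 contigs of any kind, so their 0 says nothing particular about the members. Without H. betulifolium plant 3, 65 members were called, beside 1.49% of all contigs tested.

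**Figure D3:**
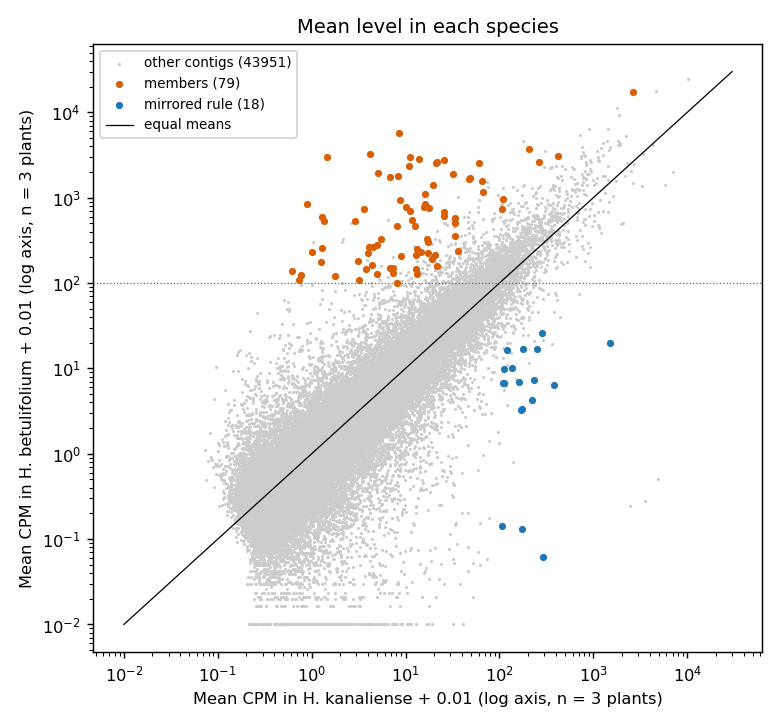
Mean CPM (plus 0.01, log axes, n = 3 plants per species) in H. kanaliense and in H. betulifolium of the 44048 tested contigs, with the 79 members, the 18 contigs that meet the mirrored rule, a line of equal means and a dotted line at 100 CPM in H. betulifolium. The members span levels from under 1 to over 1000 CPM in H. kanaliense, where 6 are at 100 CPM or more.

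Members made up more of the abundance classes the higher the level in H. betulifolium. The classes are cut on the same H. betulifolium mean that the rule used. A high mean there itself makes a wide separation likelier, so nothing about the members is read from this order. Of contigs with a mean of 100 to 300 CPM there, 31 of 1471 (2.11%) were members. Of those at 300 to 1000 CPM, 24 of 404 (5.94%) were, and of those at 1000 CPM or more, 24 of 151 (15.9%). Without H. betulifolium plant 3 the shares were 6.19%, 14.4% and 25.6%. The mirrored rule, a mean of at least 100 CPM in H. kanaliense with its lowest plant at least 4 times the highest of H. betulifolium, was met by 18 of 1337 contigs (1.35%). By class these were 16 of 1036 (1.54%), 1 of 243 (0.412%) and 1 of 58 (1.72%). The 18 held 0.412% to 0.654% of H. kanaliense reads and 0.0078% to 0.023% of H. betulifolium reads. The imbalance of 79 against 18 became 61 against 40 on library totals. It became 91 against 54 without H. betulifolium plant 1, 98 against 25 without plant 2 and 211 against 53 without plant 3. Since the reference was made from H. kanaliense and the classes differ in size and spread, the part of either in the imbalance was not tested.

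The members differed from other abundant contigs in which H. betulifolium plant they were highest. Plant 2 was the highest of the 3 in 50 of 79 members (63.3%), plant 1 in 22 and plant 3 in 7. Of the 1947 other contigs at 100 CPM or more in H. betulifolium, plant 1 was the highest in 72.0%, plant 2 in 15.4% and plant 3 in 12.6%. The rule does not fix which plant is highest, but the same H. betulifolium values chose the members. A single high plant can carry a mean past 100 CPM, and without plant 2 the rule kept 70 of the 79. On library totals, which lower plant 1, plant 2 was the highest in 72.2% of members and 27.7% of the other contigs, and upper-quartile scaling gave 73.4% and 26.6%. Of the other contigs, 39.5% were then highest in plant 1 on library totals (32.7% in plant 3) and 58.6% with upper quartiles (14.9% in plant 3). Among contigs with at least 100 CPM in each H. betulifolium plant, plant 2 led in 37 of 58 members (63.8%) and in 117 of 729 others. With 1 library per plant the difference was not tested, and contigs are not replicates.

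Plant 2 lay above plant 1 in the median member and below it in the median of the other abundant contigs, under TMM and the 3 other scalings. The median member was 0.70 higher in plant 2 than in plant 1 (log2 CPM), whereas the other abundant contigs had a median log2 ratio of plant 2 to plant 1 of -1.08. Plant 3 lay below plant 1 by a similar amount in both sets, with median log2 ratios of -1.27 in members and -1.26 in the others. These sizes depended on the scaling, since the TMM factor of plant 1 was the lowest. On library totals the ratio of plant 2 to plant 1 was 1.45 in members and -0.34 in the others, and that of plant 3 to plant 1 was -0.23 and -0.22. The most common order was plant 2, then 1, then 3, in 41 members, followed by plant 1, 2, 3 in 17. Relative to the H. kanaliense mean, the median member was 40.9-fold higher in plant 1, 50.9-fold in plant 2 and 16.3-fold in plant 3.

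**Figure D4:**
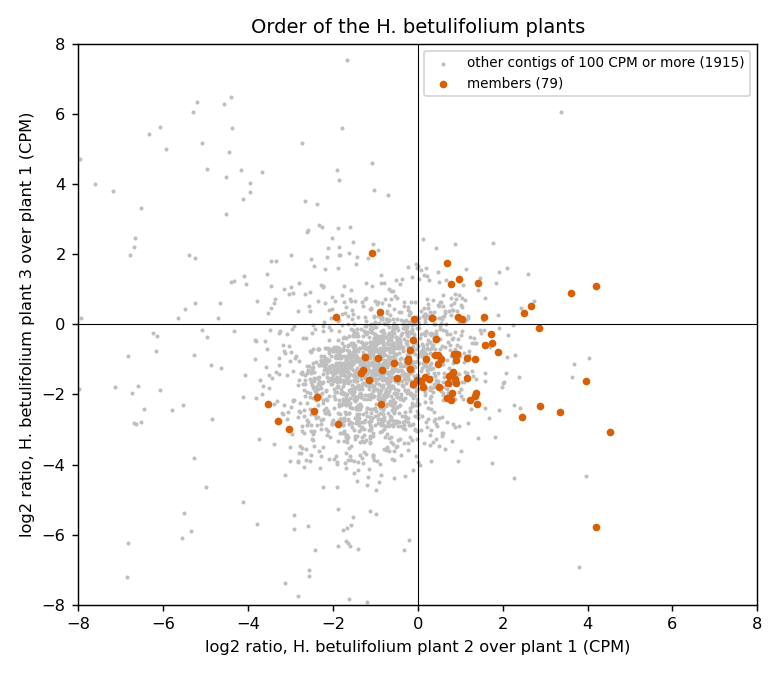
Log2 ratio of H. betulifolium plant 2 over plant 1 (horizontal) and of plant 3 over plant 1 (vertical) for the 79 members and for the other contigs with a mean of at least 100 CPM in H. betulifolium; each point is 1 contig, and 32 of the others lie outside the axes or at 0 in a plant. In 53 of 79 members plant 2 exceeds plant 1, against 17.3% of the other contigs.

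The 6 members that were also at 100 CPM or more in H. kanaliense had another order. Under TMM 5 of the 6 were highest in plant 1, whereas 49 of the other 73 members were highest in plant 2. This contrast depended on the scaling: on library totals plants 1, 2 and 3 led in 1, 3 and 2 of the 6, and upper-quartile scaling gave 3, 3 and 0. For the 73 others plant 2 led in 49 to 55 under every scaling tried.

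The level of a member often differed strongly between H. betulifolium plants. The highest plant was 1.20 to 995 times the lowest, with a median of 4.35, and at least 4 times in 40 members. The other abundant contigs had a median of 3.74, and 46.6% differed at least 4-fold. A difference of 10-fold or more was seen in 12 members (15.2%), against 16.5% of the other abundant contigs. Of these 12 members, 11 were highest in plant 2. At 100 CPM or more were 58 members in all 3 H. betulifolium plants, 15 in a pair of them and 6 in a single plant.

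The members with the widest spread were carried by plant 2. The contig ranked 7 had 461, 8412 and 8.46 CPM in the H. betulifolium plants, against 0.360, 1.88 and 2.09 CPM in those of H. kanaliense. The contig ranked 4 had 405, 9284 and 48.4 CPM, against 2.32, 2.91 and 7.40 CPM. In both, plant 3 was far nearer to H. kanaliense than to plant 2, and the means rest on that plant. In 12 members over 75% of the summed H. betulifolium level came from a single plant, 9 of them from plant 2 and 3 from plant 1.

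A smaller number of members was even across H. betulifolium. In 8 of the 79 (10.1%) the highest plant was under 2 times the lowest, against 15.5% of the other abundant contigs. The contig ranked 54 had 229.8, 216 and 258 CPM in H. betulifolium and 50.7, 33.6 and 25.6 CPM in H. kanaliense. The contig ranked 43 had 415, 524 and 471 CPM against 11.4, 3.87 and 8.78 CPM. These are the members whose level in H. betulifolium varied least between plants, with ratios of 1.20 and 1.26. Plant 3 was the highest in 7 members, all with a mean under 300 CPM, among them the contig ranked 67 with 81.6, 38.9 and 334 CPM.

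Within H. kanaliense the members varied less between plants than within H. betulifolium. The highest plant was 1.09 to 11.6 times the lowest, with a median of 1.74, and under 2 times in 48 of 79 members (60.8%). The other abundant contigs had a median of 1.47, and 76.7% were under 2 times. The members were on average much lower there (medians of 9.77 to 12.6 CPM against 103 to 115 CPM), so their counts were smaller. The part of the lower counts in the wider spread was not tested. The contig ranked 10 was an exception to the steadiness, with 12.6, 47.6 and 4.90 CPM in H. kanaliense.

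Few pairs of members kept a constant ratio over the 6 plants, although 36 of the 79 members had at least 1 such partner. Of 3081 pairs, 44 (1.43%) stayed within a 2-fold change of their ratio in all plants. Among pairs of the other abundant contigs the share was 4.62%. The closest pair, the contigs ranked 3 and 47, changed its ratio by at most 0.323 (log2). Hkan_v1_contig_268 and Hkan_v1_contig_2064 also formed such a pair, at 0.435. Pairs share contigs and libraries, so these shares are descriptions. The ratios were also followed across both species, and the rule admits members with species folds from 6.40 to 2048. Members with unlike folds must change their ratio, so the lower share is not read as a trait of the members.

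Consecutive contig numbers were found in 5 of the 79 members, against 748 of the 1947 other abundant contigs, a larger set with more possible neighbours. One run of 3 held the contigs ranked 15, 10 and 68, and another of 2 the contigs ranked 12 and 34. All 5 had the order plant 2, plant 1, plant 3 in H. betulifolium. The contigs ranked 15 and 10 had 1946, 3236 and 707 CPM and 2922, 4099 and 846 CPM there, and the contig ranked 68 had 95.8, 286 and 63.8 CPM. In H. kanaliense the first had 5.53, 3.97 and 5.59 CPM, while the second had 12.6, 47.6 and 4.90 CPM. Whether neighbours in number come from 1 gene is not known from the files. The numbers were related to abundance in the reference species, with Spearman's correlations with CPM of -0.740 to -0.815 in H. kanaliense plants and -0.630 to -0.696 in H. betulifolium plants over 44048 contigs. The median number was 14709 in members and 3164 in the other abundant contigs. Contigs at lower levels in H. kanaliense had higher numbers, and the rule chose members that were low there relative to H. betulifolium. The higher median number in members was therefore largely set by their choice.

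Leaving out H. betulifolium plant 3 added the most contigs to the set, and leaving out plant 2 removed the most members. Leaving out a plant loosens a rule that sets the lowest plant against the highest. Higher counts with most members kept were therefore largely fixed by its form. Without H. kanaliense plants 1, 2 or 3 the rule gave 89, 94 and 86 contigs, each with 78 of the 79 members. Without H. betulifolium plant 1 it gave 91, with 77 of the members, and without plant 2 it gave 98, with 70. Without plant 3 it gave 211, with 77 of the members and 134 further contigs. In plant 3 these 134 had a median of 47.4 CPM, against 255 CPM over plants 1 and 2 and a median highest H. kanaliense value of 33.5 CPM. They fail the rule once plant 3 is included, so a low plant 3 was largely set by how they were picked. The 28 contigs added without plant 2 were likewise low in that plant, with a median of 46.8 CPM. Their median was 251 CPM over the other H. betulifolium plants, and their median highest H. kanaliense value was 30.4 CPM. In 47 of the 134, plant 3 was at or below the highest H. kanaliense plant, and in 78 it was above it by less than 4-fold. Plant 3 was also the lowest of the 3 in 58 of the 79 members (73.4%), against 53.3% of the other abundant contigs. On library totals plant 3 was the lowest in 36 members (45.6%), against 40% of the other abundant contigs, and plant 1 was the lowest in 31 members.

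**Figure D5:**
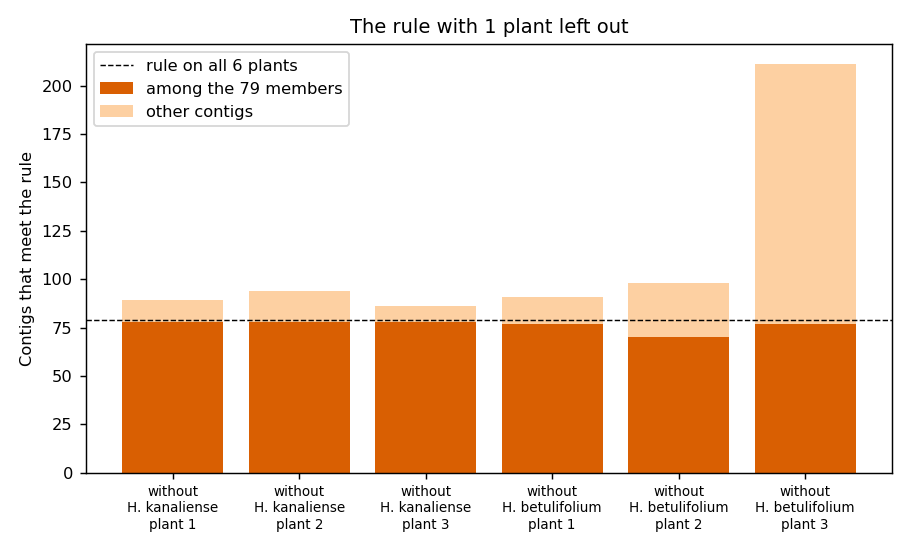
Number of contigs that meet the rule (vertical axis) with each plant left out in turn, split into those among the 79 members and other contigs; the dashed line marks the 79 found with all 6 plants. The count is 86 to 98 without any 1 of the other plants and 211 without H. betulifolium plant 3.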

How the data were processed

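Leaf polyA RNA of 6 plants was sequenced as stranded paired-end libraries, 1 plant each, per the labels' protocols. The authors deposited whole-number read counts per contig of an H. kanaliense transcriptome, per the file headers and the design text. Aligner, counter, their settings and how reads matching several contigs were treated: not given in the sources used here. Reads may therefore be split between alleles, paralogs or isoforms.

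Groups and replicate numbers came from the titles. Plants are separate individuals, and p-values weigh the species difference against the spread between plants of a species. Each species was sampled at a single site and date, so they do not cover spread between sites or dates. No 2 libraries agreed within sampling noise (smallest reduced chi-square 110.3, contigs with at least 20 reads). Contigs were filtered with filterByExpr (minimum count 10, minimum total 15), which kept at least 99.6% of each library's reads. Library sizes were recomputed and TMM, glmQLFit (robust) and glmQLFTest were run in edgeR 4.0.16 (R 4.3.3) on all 6 plants and adjusted over all contigs. The fit was also run on simulated counts with the same fold change in every H. betulifolium plant. The members often varied strongly between those plants, so nothing here rests on that run. The SE is the log2 fold change divided by the square root of the F statistic. The named contigs are the member highest in H. betulifolium and, as it was also highest in H. kanaliense, the second in H. kanaliense; other members are given by rank and were picked after their values were seen. The members and comparisons were chosen with earlier results of these data known. Alternatives were other scalings, filters, rule limits, DESeq2 1.42.0, limma-voom (limma 3.58.1), the replicate block and each plant left out. Figures used matplotlib 3.10.9.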

Additional observations from a re-analysis of the deposited data

How the results depend on the processing

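The number of members stayed within 1.5 times of 79 under the other scalings and filters (61 to 85) and with mean limits of 50 and 200 CPM (100 and 61). It was 167 with a separation of at least 2, 46 with at least 8, and 86 to 211 with 1 plant left out, which loosens the rule. The mirrored rule gave 40 contigs on library totals and 22 to 54 with 1 plant left out (53 and 54 without H. betulifolium plants 3 and 1, 28 without H. kanaliense plant 1). Members called numbered 43 to 58 in edgeR under other scalings, filters and without robust estimation (0.682% to 1.27% of all contigs), 78 in DESeq2 (6.53%), 69 in limma-voom (1.8%) and 0 to 65 with 1 plant left out (0% to 1.49%). In the 5 fits in which edgeR called 0 of all contigs, 78 or 79 members had an unadjusted p under 0.05 and the lowest adjusted p of a member was 0.0567 to 0.132. The share of all contigs under that unadjusted p is not given for these fits or the replicate block. Nothing about the members is read from those counts. DESeq2 and limma-voom were run on all 6 plants only. edgeR with the replicate block called 0 of all 44048 contigs and so 0 members, of which 79 had an unadjusted p under 0.05; their lowest adjusted p was 0.117 and their median log2 fold change 5.10. By the labels, same-numbered plants of the different species shared no plant, site or day. They deviated from their species means with correlations of 0.0225, -0.097 and 0.201, and 1 of 3 H. kanaliense plants correlated best with its own number. With so few plants these values cannot tell whether the numbers mark another pairing. The members' median log2 fold change was 4.79 to 5.67 under other scalings and tools and 4.93 to 5.94 with 1 plant left out; it was 4.79 on library totals, which moved the median of all contigs to -0.477. All 79 members were higher in H. betulifolium in every fit, which their choice nearly fixed. Members found on library totals held 0.196%, 0.171% and 0.166% of the reads of H. kanaliense plants 1, 2 and 3. Hkan_v1_contig_268 and Hkan_v1_contig_2064 are then not among the 61; without the first alone the shares are 0.291%, 0.257% and 0.242%. Plant 1 was the highest in 14 members with upper quartiles and 11 on library totals. Plant 3 was the highest in 11 on library totals and in 2 of those with at least 100 CPM in every H. betulifolium plant. This last setting, the ratios and spread between H. betulifolium plants under other scalings (median spread 3.74 to 4.35) and the classes without plant 3 were added after seeing the data. No cause was tested. With 3 plants per species, a low-level member of H. kanaliense rests on as few as 17 reads.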
